A study of Mus musculus with 4 samples.

Results

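The T cells of the synovium, the lining tissue of the joint, were examined in TNF+ mice and TNF- littermates. A barcode was counted as a T cell if it held at least 2 UMIs (unique molecular identifiers, each 1 captured RNA molecule) of Cd3e, Cd3d and Cd3g together, none of the B cell genes Cd79a and Ms4a1, none of the macrophage gene Csf1r, and at most 5 of the collagen genes Col1a1 and Col1a2. Barcodes first needed at least 500 UMIs, of which at most 20% were mitochondrial. By this rule 176 of 10136 kept synovial barcodes were T cells, 99 of 6638 barcodes of the TNF- library and 77 of 3498 of the TNF+ library. All 4 libraries of the series together held 29563 kept barcodes. TNF+ mice carried a human TNF transgene, expressed in these mice as a model of inflammatory-erosive arthritis with lung disease, and TNF- mice were wildtype littermates. All mice were 4-month-old females on a C57BL/6 background without any other allele or treatment. Synovium was pooled from 5 to 10 mice per genotype before capture and lung from 3 to 5, so that each genotype and tissue was 1 library. With 1 library per group no test between genotypes was possible, and each interval is at 95% and covers counting error only. The human transgene was not in the mouse reference, and its RNA was not measured.

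T cells recognise antigen through a receptor that is held at the surface by the CD3 chains, whose RNA defined the cells here. Most carry an alpha beta receptor and either CD4, which marks helper and regulatory cells, or CD8, which marks cytotoxic cells, while a smaller lineage carries a gamma delta receptor and is common in tissues such as skin and joint lining. Regulatory T cells, defined by the transcription factor Foxp3, restrain inflammation. Cells sense TNF through the receptors Tnfrsf1a and Tnfrsf1b, which act through the transcription factor NF-kB.

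The cells carried the genes of their label. A UMI of a receptor constant gene (Trac, Trbc1, Trbc2 or Trdc), none of which entered the rule, was present in 98 of 99 TNF- and 74 of 77 TNF+ cells. These genes are not all particular to T cells: in natural killer-marked barcodes without a CD3 UMI (32 TNF- and 16 TNF+), Trbc1 was found in 71.9% and 87.5%, but Trac in 6.25% and 0%. Trac alone was found in 63 TNF- and 52 TNF+ T cells. The median sum of the CD3 chains was 12 UMIs in TNF- against 9 in TNF+ cells. At the edge of the rule, 4 TNF- and 4 TNF+ cells held exactly 2 CD3 UMIs, and a receptor gene was found in 4 and 3 of them. Just outside it, 14 TNF- and 10 TNF+ barcodes held 1 CD3 UMI, with a receptor gene in 5 and 6. The genes barred by the rule removed 7 TNF- barcodes for B cell genes, 3 TNF- and 1 TNF+ for collagen, and 13 TNF- for Csf1r.

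Depth differed between the libraries and bears on every share below. The median TNF- cell held 10842 UMIs and 2723 genes, and the median TNF+ cell 6736 UMIs and 2246 genes. The cells together held 1323708 UMIs in TNF- against 539910 in TNF+ library. The 4 libraries shared 5 to 21 barcodes pairwise, and no T cell was among them. Genes of other cells were also present. At least 10 UMIs of Cd74, the invariant chain of antigen-presenting cells, or of Lyz2, the lysozyme of myeloid cells, were found in 10 TNF- cells, which gave 20.1% of all TNF- T cell UMIs, and in 1 TNF+ cell with 0.986%. The macrophage list, 13 genes, had UMIs for 10 in TNF- against 11 in TNF+ cells at a summed 757 and 641 CPM (the UMIs of a gene per 1000000 UMIs of the same cells), against 2052 and 13493 CPM in the other barcodes of each library, with C1qa, C1qb and C1qc at 0 in the TNF- and Adgre1 and Mrc1 at 0 in the TNF+ cells. The log2 ratio of the macrophage sum, TNF+ over TNF-, was -0.24 (-0.42 to -0.06) over all T cells. Without the cells with at least 10 UMIs of Cd74 or Lyz2 it turned to 1.12 (0.87 to 1.36). Lyz2 was the top gene of this list and also set which cells were left out. No UMI of the list was found in 42 TNF- and 20 TNF+ cells. The B cell list was at 68.0 and 59.3 CPM with Mzb1 and Pax5 at 0 in both, the fibroblast list at 388 and 209 CPM, and the neutrophil list at 13.6 and 3.70 CPM. Results below were also computed without the cells rich in Cd74 or Lyz2, a choice made after values were seen, and that value is given beside the results it moved most.

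T cells were a small share of both synovial libraries. They were 1.49% (95% interval 1.21 to 1.81) of kept TNF- barcodes and 2.20% (1.74 to 2.74) of kept TNF+ barcodes. The difference of 0.71 percentage points had an interval of 0.168 to 1.31 points. By the same rule the lung held 872 T cells among 8342 kept barcodes of TNF- mice and 1049 among 11085 of TNF+ mice. A share of barcodes also depends on what else was captured, and fibroblast-marked barcodes (at least 20 collagen UMIs and none of the leukocyte gene Ptprc) numbered 2854 in the TNF- but 428 in the TNF+ synovium. Without them, a choice made after values were seen, the order turned: T cells were 2.62% (2.13 to 3.18) of 3784 TNF- barcodes and 2.51% (1.98 to 3.12) of 3070 TNF+ barcodes.

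In both genotypes the commonest synovial T cell had no coreceptor UMI, followed by cells with Cd4 only. Cd4 UMIs without CD8 (Cd8a or Cd8b1) were found in 31 of 99 TNF- cells, 31.3% (22.4 to 41.4), and in 23 of 77 TNF+ cells, 29.9% (19.97 to 41.4). CD8 UMIs alone were found in 19.2% (11.97 to 28.3) and 15.6% (8.32 to 25.6). These shares lay well inside each other's intervals. Neither coreceptor was seen in 47.5% (37.3 to 57.8) of cells for TNF- mice and 54.5% (42.8 to 65.9) for TNF+ mice. Both were seen in 2 TNF- cells and in 0 of 77 TNF+ cells, which at a floor of 3 cells allows a share of up to 3.90%. Coreceptor UMIs were also seen outside T cells. Cd4 alone was seen in 9.36% of TNF- and 0.701% of TNF+ fibroblast-marked barcodes, and CD8 alone in 0.140% and 0.234%. Their median depths were 17024 and 23597 UMIs. In endothelium-marked barcodes, at median depths of 5082 and 9029.5 UMIs, Cd4 alone was seen in 6.503% and 8.09%. Any Cd4 UMI was seen in 1.86% and 1.54% of macrophage-marked barcodes, at median depths of 17416 and 15853 UMIs. The source of these UMIs was not tested.

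At each cell's own depth, a smaller share of TNF+ than of TNF- T cells passed a gate on gamma delta receptor UMIs. Cells that passed it are called gamma delta cells here, whether or not they also held Trac, Cd4 or CD8 UMIs. Any UMI of the delta constant gene Trdc, or at least 2 UMIs over Trdc and the gamma constant genes Tcrg-C1, Tcrg-C2 and Tcrg-C4, marked 26 of 99 TNF- cells, 26.3% (17.9 to 36.1), and 9 of 77 TNF+ cells, 11.7% (5.49 to 21.0). Trdc itself was found in 15 of these TNF- and 6 of these TNF+ cells, and the others passed on gamma constant UMIs only. Of the cells with Trdc, 4 TNF- and 1 TNF+ also held Trac. The difference in share was -14.6 percentage points (-25.5 to -2.71). The TNF- cells were deeper, and with each cell thinned to 1000 UMIs the shares were 10.1% and 3.90%, a difference of -6.20 points whose interval (-14.1 to 2.08) held 0. In fibroblast-marked barcodes the same gate was passed by 0.0701% in TNF- against 3.97% in TNF+ library, and in natural killer-marked barcodes, at median depths of 8636.5 and 10236.5 UMIs, by 25% of both. The lung went the other way, with 12.2% (10.1 to 14.5) for TNF- mice and 16.1% (13.9 to 18.5) for TNF+ mice. Trdc, the delta constant chain, stood at 190 CPM (251 UMIs in 15 cells) in TNF- against 68.5 CPM (37 UMIs in 6 cells) in TNF+ synovial T cells, a log2 ratio of -1.47 (-2.01 to -0.97). Trdv4, a delta variable segment, went the other way, with 24 and 36 UMIs, but 26 of the 36 came from 1 cell.

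Cells with a Foxp3 UMI were few in both genotypes. They were 5 of 99 TNF- cells, 5.05% (1.66 to 11.4), and 9 of 77 TNF+ cells, 11.7% (5.49 to 21.0), and the difference of 6.64 points (-1.62 to 16.1) had an interval that held 0. Thinned to 1000 UMIs, 0 of 99 TNF- cells held a Foxp3 UMI, which at a floor of 3 cells allows a share of up to 3.03%. Of the thinned TNF+ cells 5.19% (1.43 to 12.8) held one, a difference of 5.19 points (0.305 to 12.6). Fibroblast-marked barcodes had 0.105% and 0.234%. In the lung the Foxp3 share was 5.73% (4.29 to 7.49) for TNF- mice and 14.1% (12.1 to 16.4) for TNF+ mice.

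**Figure D1:**
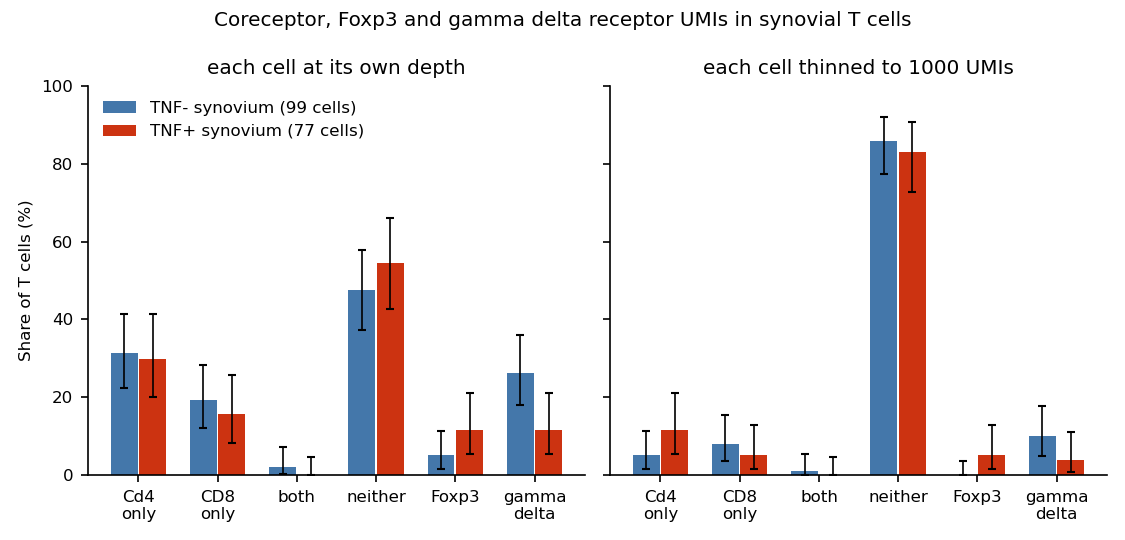
Share of synovial T cells in percent with UMIs of Cd4 only, CD8 only, both, neither, Foxp3 or the gamma delta receptor, in the TNF- (99 cells) and TNF+ (77 cells) library; bars are shares and lines are 95% Clopper-Pearson intervals. On the left, at each cell's own depth, gamma delta cells were 26.3% and 11.7%; on the right, with each cell thinned to 1000 UMIs, the shares with Cd4 only, CD8 only, Foxp3 or the gamma delta receptor were lower, those with neither coreceptor were higher, at 85.9% and 83.1%, and the gamma delta shares were 10.1% and 3.90%.

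Next, gene levels were compared between the T cells of both genotypes. Of 7448 genes with at least 20 UMIs over both libraries, 588 (7.89%) were at least 2-fold higher and 726 (9.75%) at least 2-fold lower in TNF+ cells, and the median log2 ratio of TNF+ over TNF- was 0.11. Of the genes past 2-fold, 44.7% were higher. With scaling by median-of-ratios, which lowers every log2 ratio by 0.19, 27.8% were higher. List medians below are therefore also given relative to the median of all genes.

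The receptor genes stood within 2-fold. Of 20 genes of the T cell receptor complex and its first signalling steps, 0 were 2-fold higher and 1 was 2-fold lower. The shares of all genes were 7.89% and 9.75%. The median log2 ratio of the 20 genes was 0.04. Trac, the alpha constant chain, stood at 229 CPM in TNF- against 243 CPM in TNF+ cells. Trbc2, a beta constant chain, was at 553 and 589 CPM. Their log2 ratios of 0.08 (-0.22 to 0.38) and 0.09 (-0.10 to 0.28) held 0, and without the cells rich in Cd74 or Lyz2 they were -0.07 and -0.12. The exception was Themis, a signalling protein of developing and resting T cells, at 264 CPM (349 UMIs) and 63.0 CPM (34 UMIs), a log2 ratio of -2.07 (-2.62 to -1.56). UMIs of variable segments were sparse, as the libraries read the 3' end of each RNA. Beta variable segments were seen in 21 TNF- cells (16 different genes) and 22 TNF+ cells (11 genes), and no segment was seen in more than 3 TNF- or 5 TNF+ cells.

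The group with the most genes past 2-fold was that of immediate-early genes, which cells switch on within minutes of a stimulus, and which handling of tissue also switches on. Of 19 list members compared, 13 were at least 2-fold lower in TNF+ T cells and 0 higher, beside 9.75% and 7.89% of all genes. The median log2 ratio was -1.13, or -1.25 relative to all genes. Their summed level was 10354 CPM in TNF- against 5732 CPM in TNF+ cells, a log2 ratio of -0.85 (-0.91 to -0.80). The difference was seen across cells. The median cell was at 8621 CPM (quartiles 5658 and 14736) among TNF- cells against 5643 CPM (3617 and 8284) among TNF+ cells, and the ranges overlapped.

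The genes of the list differed in size of shift. Fosb, a component of the AP-1 transcription factor, was at 734 CPM in TNF- (972 UMIs in 80 of 99 cells) and 104 CPM in TNF+ cells (56 UMIs in 31 of 77 cells), a log2 ratio of -2.82 (-3.24 to -2.43). Fos, another AP-1 component, was at 537 and 119 CPM, -2.18 (-2.57 to -1.81), although 245 of its 711 TNF- UMIs came from 1 cell. Nr4a1 (Nur77), a nuclear receptor induced by antigen receptor signals, was at 446 and 72.2 CPM, -2.63 (-3.13 to -2.16). All 3 stood below the line of 2-fold by a wide margin, and the lower level was seen as well at equal depth. Thinned to 1000 UMIs, Fosb was detected in 33.3% of TNF- and 11.7% of TNF+ cells, Fos in 25.3% and 6.49%, and Nr4a1 in 31.3% and 3.90%. Trbc2 at the same thinning was detected in 36.4% of both.

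Other members with a log2 ratio past -1 were Egr1 (-2.89), a zinc finger factor, Atf3 (-2.54), a stress factor, Zfp36 (-2.05), which destabilises cytokine RNAs, Dusp1 (-1.45), a phosphatase of MAP kinases, Jun (-1.34), Nr4a3 (-1.25), Btg2 (-1.13), Ier3 (-1.09), Hspa1b (-1.09), a heat shock chaperone, and Ier2 (-1.02). The 6 that stayed within 2-fold were Jund (-0.95), Hspa1a (-0.89), Junb (-0.50), Dnajb1 (-0.10), Hspa8 (0.21) and Dusp2 (0.59). Among the AP-1 and Nr4a genes of the list, Fos, Fosb, Jun, Nr4a1 and Nr4a3 were thus past 2-fold. Junb, at 2270 and 1606 CPM, and Jund were not. Outside the list, the AP-1 component Fosl2 was at 363 and 319 CPM, -0.19 (-0.45 to 0.06). Without the cells rich in Cd74 or Lyz2, Ier3 was at -0.43 and Dusp1 at -0.99, and the list sum was at -0.82.

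A 250-base promoter, taken from RefSeq sequences on GRCm38 and ending at the base before the start given in the RefSeq table, was available for 17 of the 20 immediate-early genes. Cyclic AMP and calcium signals are known to act on many such genes through CREB, which binds the element TGACGTCA or its core, TGACG. The core, on either strand, was present in 9 of the 17 (52.9%), against 17.8% of 32851 mouse promoters of this length. At least 3 copies were present in 3 of the 17, Nr4a1, Nr4a3 and Dusp1, against 0.688% of all promoters. The whole element was present in Dusp1 and Btg2, against 1.55% of all promoters. A match only describes the letters, and binding was not measured. The 3 promoters are shown with that of Areg, a growth factor gene picked from outside the list, which held 3 copies with 1 whole element. No other gene outside the list was picked. Areg had UMIs in 20 TNF- and 10 TNF+ T cells, and 61 of its 96 TNF+ UMIs came from 1 cell. The Nr4a1 and Dusp1 windows lie wholly, and 152 bases of that of Nr4a3, inside the gene's span in GENCODE, which holds longer transcripts, while that of Areg ends where its span begins. The bases that GENCODE places in an exon, 152 for Nr4a3 and 47 for Dusp1, are not printed, which leaves 3 of the 4 copies of Nr4a3. Each reads 5' to 3' on the gene's own strand, with the core or the whole element, on either strand, in capitals (CGTCA is the core read on the opposite strand, and a whole element holds the core once on each strand and so counts as 2 copies).
Nr4a1, chr15:101266596-101266845, plus strand, 4 copies: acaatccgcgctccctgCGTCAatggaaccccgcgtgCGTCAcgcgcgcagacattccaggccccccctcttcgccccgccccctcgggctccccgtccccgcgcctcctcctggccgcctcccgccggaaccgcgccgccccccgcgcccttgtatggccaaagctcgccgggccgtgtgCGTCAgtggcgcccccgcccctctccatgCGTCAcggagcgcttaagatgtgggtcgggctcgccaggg
Nr4a3, chr4:48045055-48045152, plus strand, 3 copies: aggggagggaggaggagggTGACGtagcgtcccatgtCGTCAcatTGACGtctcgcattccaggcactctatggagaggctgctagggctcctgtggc
Dusp1, chr17:26508520-26508722, minus strand, 3 copies, 1 whole element: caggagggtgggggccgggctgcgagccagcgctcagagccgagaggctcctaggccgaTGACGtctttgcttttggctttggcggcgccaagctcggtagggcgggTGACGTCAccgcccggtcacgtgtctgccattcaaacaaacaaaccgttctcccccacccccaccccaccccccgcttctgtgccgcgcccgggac
Areg, chr5:91139349-91139598, plus strand, 3 copies, 1 whole element: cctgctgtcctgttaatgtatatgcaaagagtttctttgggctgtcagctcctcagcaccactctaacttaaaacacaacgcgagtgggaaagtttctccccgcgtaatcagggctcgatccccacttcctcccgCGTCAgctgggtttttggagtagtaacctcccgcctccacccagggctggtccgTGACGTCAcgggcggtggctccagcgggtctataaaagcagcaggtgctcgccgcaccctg

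The list was lower in TNF+ barcodes of other synovial cell types too. In the same libraries the summed log2 ratio of the list was -1.17 in fibroblast-marked, -1.14 in macrophage-marked, -0.63 in natural killer-marked and -0.30 in endothelium-marked barcodes. In lung T cells it was -0.03. Fosb stood at 1929 CPM in TNF- against 818 CPM in TNF+ fibroblast-marked barcodes and at 690 and 130 CPM in macrophage-marked ones. The part of tissue handling in the T cell values was not tested.

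Of 16 genes of the TNF receptors and NF-kB response, 6 were at least 2-fold lower in TNF+ T cells and 0 higher, beside 9.75% and 7.89% of all genes, and 10 stood within 2-fold, with a median of -0.32, or -0.43 relative to all genes. The summed level was 3735 CPM in TNF- against 2447 CPM in TNF+ cells, a log2 ratio of -0.61 (-0.70 to -0.52). The median cell was at 2934 CPM in TNF- against 2241 CPM in TNF+ library. Nfkb1, a subunit of NF-kB, was at 999 CPM (1323 UMIs) and 391 CPM (211 UMIs), -1.35 (-1.57 to -1.14). Nfkbia, the inhibitor that NF-kB induces to stop itself, was at 541 and 215 CPM, -1.33 (-1.63 to -1.05), and was detected in 41.4% and 18.2% of cells thinned to 1000 UMIs.

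Nfkbie (-1.28) and Nfkbiz (-1.23), genes of the same family as Nfkbia, were also past 2-fold, as were the adhesion molecule Icam1 (-1.04) and the TNF receptor Tnfrsf1a (-1.01). Without the cells rich in Cd74 or Lyz2, Icam1 was at -0.34, Tnfrsf1a at -0.52 and Nfkbie at -0.97. Tnfaip3 (A20), the enzyme that ends NF-kB signalling, was at 588 and 563 CPM, and the other TNF receptor, Tnfrsf1b, at 153 and 178 CPM. The list's ratio differed in sign between cell types, at -0.72 in macrophage-marked and -0.57 in natural killer-marked barcodes, but 0.25 in fibroblast-marked and 0.88 in endothelium-marked barcodes. In lung T cells, with cells rich in Cd74 or Lyz2 included, it was 0.40 (0.37 to 0.43).

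Of 13 interferon-stimulated genes compared, 5 were at least 2-fold lower in TNF+ T cells and 0 higher, beside the same shares of all genes, and 8 stood within 2-fold, with a median of -0.78, or -0.89 relative to all genes. The summed level was 1360 CPM in TNF- against 580 CPM in TNF+ cells, -1.23 (-1.41 to -1.06), and 2 TNF- and 13 TNF+ cells had no UMI of the list. The sum rested largely on Ifi27l2a, an interferon-induced gene, at 620 CPM (821 UMIs in 60 cells) and 119 CPM (64 UMIs in 25 cells), -2.39 (-2.78 to -2.02). The other 4 were Ifi206 (-2.68, 47 and 3 UMIs), the guanylate-binding protein Gbp2 (-2.33, 37 and 3 UMIs), the nucleic acid sensor Zbp1 (-1.88, 45 and 5 UMIs) and the surface protein Ly6a (-1.54, 185 and 26 UMIs). The list stood at -2.02 in macrophage-marked and -0.82 in fibroblast-marked barcodes, at 0.17 in endothelium-marked barcodes and at -0.02 in lung T cells. In natural killer-marked barcodes it was at -0.24 (-0.60 to 0.11), an interval that held 0.

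**Figure D2:**
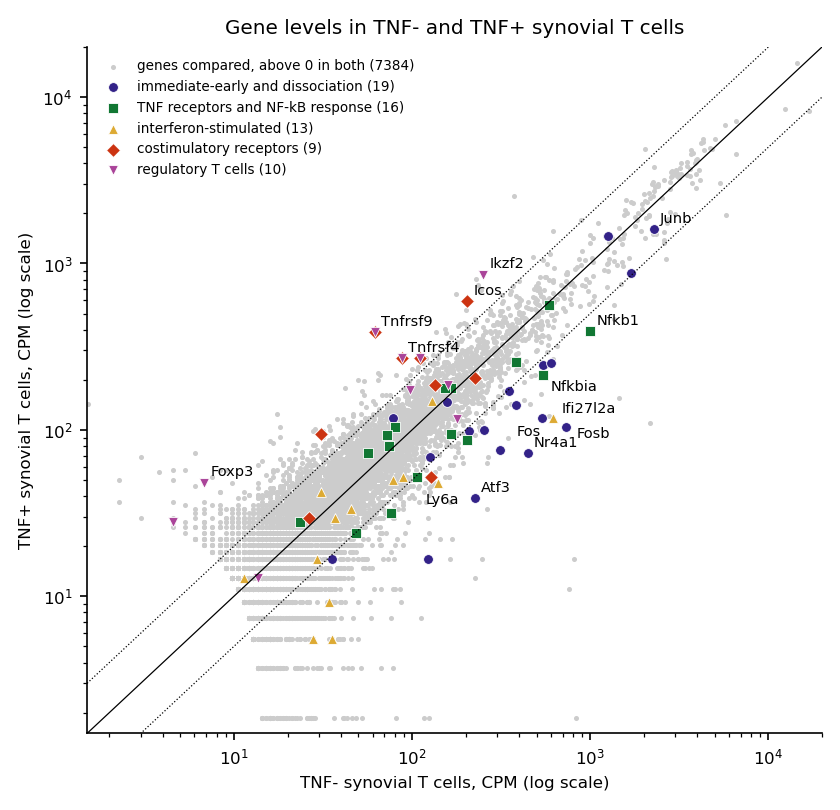
Level of each compared gene in CPM in TNF- (horizontal) and TNF+ (vertical) synovial T cells, both on log scales; the solid line marks equal levels and the dotted lines 2-fold differences, and coloured symbols mark 5 gene lists. Immediate-early genes such as Fosb (734 and 104 CPM) lay below the lower dotted line, and regulatory and costimulatory genes such as Tnfrsf9 (61.9 and 387 CPM) above the upper one.

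**Figure D3:**
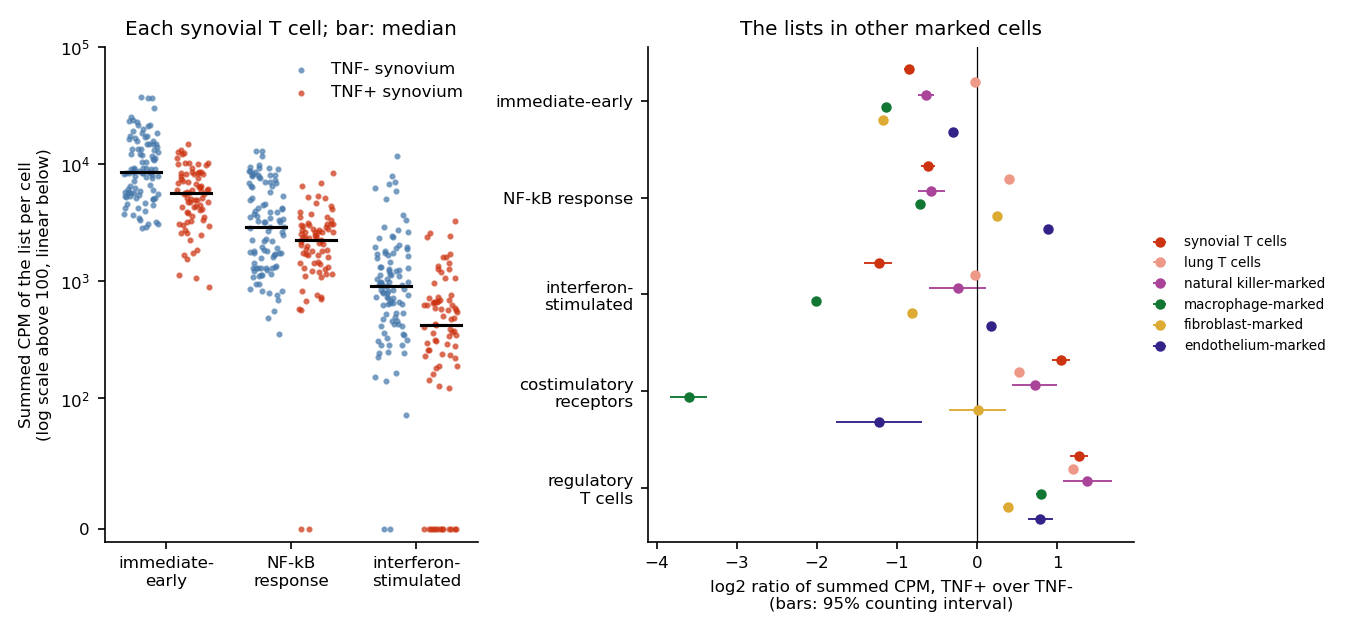
Left, summed CPM of 3 gene lists in each synovial T cell, with the median as a bar, on an axis that is logarithmic above 100 and linear below. Right, log2 ratio of summed CPM, TNF+ over TNF-, of 5 lists in synovial T cells, lung T cells and barcodes marked by genes of other cell types, with 95% counting intervals; the immediate-early sum was at -0.85 in synovial and at -0.03 in lung T cells.

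Several genes of regulatory T cells and several costimulatory receptors stood past 2-fold higher in TNF+ T cells. Of 10 regulatory genes compared, 6 were at least 2-fold higher and 0 lower, beside 7.89% of all genes, with a median of 1.46, or 1.35 relative to all genes. Their sum was 976 CPM in TNF- against 2367 CPM in TNF+ cells, 1.28 (1.17 to 1.39). Of 9 costimulatory receptors, 3 of them also on the regulatory list, 5 were higher and 1 lower, with a median of 1.3, or 1.19 relative to all genes, and a sum of 1009 and 2089 CPM. Foxp3 itself was at 6.80 CPM (9 UMIs) and 48.2 CPM (26 UMIs), 2.82 (1.69 to 4.10). Ikzf2 (Helios), a factor of regulatory and innate-like T cells, was at 252 and 858 CPM, 1.77 (1.56 to 1.98).

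The costimulatory receptors Tnfrsf9 (4-1BB), Tnfrsf4 (OX40) and Tnfrsf18 (GITR) belong to the TNF receptor family and appear on activated and regulatory T cells. Tnfrsf9 was at 61.9 CPM (82 UMIs in 27 cells) and 387 CPM (209 UMIs in 39 cells), 2.64 (2.27 to 3.03), and was detected in 6.06% and 26.0% of thinned cells. Tnfrsf4 was at 87.6 and 270 CPM, 1.63 (1.26 to 1.99), and Tnfrsf18 at 110 and 272 CPM, 1.3 (0.96 to 1.64). Icos, a receptor of the CD28 family, was at 203 and 593 CPM, 1.54 (1.31 to 1.78), and Slamf1 was at 1.61. Against the group, Cd226, an adhesion receptor of killing, was lower at -1.31, and CD25 (Il2ra), the high-affinity chain of the interleukin 2 receptor, was at 179 and 117 CPM, -0.62 (-1.04 to -0.21). The regulatory list was higher outside T cells as well, at 1.38 (1.07 to 1.69; 434 and 1129 CPM) in natural killer-marked, 0.80 in macrophage-marked, 0.79 in endothelium-marked and 0.39 in fibroblast-marked barcodes. The costimulatory receptors were at 0.72 in natural killer-marked, 0.02 in fibroblast-marked, -1.22 in endothelium-marked and -3.60 in macrophage-marked barcodes. Lung T cells showed regulatory genes at 1.21 and costimulatory receptors at 0.52. Without the cells that held a Foxp3 UMI, the regulatory sum in the synovium was at 0.93.

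Among all genes named by size of difference, Odc1 was the highest in TNF+ cells. Odc1, ornithine decarboxylase, is the rate-limiting enzyme of polyamine synthesis and lies at chr12:17544794-17551505 on the plus strand. It stood at 375 CPM (496 UMIs in 67 of 99 cells) in TNF- against 2534 CPM (1368 UMIs in 71 of 77 cells) in TNF+ T cells, a 6.76-fold difference with a log2 ratio of 2.76 (2.61 to 2.91). Thinned to 1000 UMIs, 27.3% (18.8 to 37.1) and 72.7% (61.4 to 82.3) of cells held an Odc1 UMI. In natural killer-marked barcodes Odc1 was at 148 and 1702 CPM, in macrophage-marked at 96.8 and 377 CPM, in endothelium-marked at 88.6 and 204 CPM and in fibroblast-marked at 80.3 and 165 CPM. It was thus higher in TNF+ barcodes of each of these kinds, with the highest level in T and natural killer-marked barcodes. In lung T cells Odc1 was at 57.5 and 127 CPM, a log2 ratio of 1.15.

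The rest of the 12 highest genes were Tnfrsf9 and 10 of mixed function. Stat5a, a factor that carries interleukin 2 and 7 signals, was at 42.3 and 180 CPM, 2.09 (1.60 to 2.59). The apoptosis inhibitor Birc2 was at 65.7 and 215 CPM, 1.71 (1.295 to 2.13). Ramp3, a partner of receptors for calcitonin-family peptides, was at 233 and 739 CPM, 1.66 (1.44 to 1.88). In lung T cells these 3 genes differed little, at -0.02, -0.06 and 0.25. The others were Rnf157 (1.99), Tent5a (1.87), Ostf1 (1.83), Ikzf2, Irs2 (1.71), Bpnt1 (1.63) and Ctla2b (1.63). Irs2, an adaptor of insulin receptors, was at -0.06 within CD8-only cells, where it had 20 UMIs in all.

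The 12 lowest genes rested in part on single cells. Ccl4, a chemokine for lymphocytes and monocytes, stood at 246 CPM in TNF- against 16.7 CPM in TNF+ cells, but 230 of its 325 TNF- and 8 of its 9 TNF+ UMIs came from 1 cell each. With the highest cell of each library left out, its log2 ratio was -5.28 (-10.6 to -2.76). Ctnna2 had 155 and 1 UMIs, 79 of them in 1 cell. Dach2 had 177 UMIs in 15 TNF- cells and 0 in TNF+ cells, at least 24.1-fold lower against a floor of 3 UMIs over the library's T cells. Ctnna2 and Dach2 span 1098 and 539 kb of genome, and the authors ran Cell Ranger at its default settings, under which this version also counts reads from introns. Cd83, a protein of activated antigen-presenting cells, was at 125 and 24.1 CPM over all cells, but had 3 TNF- and 13 TNF+ UMIs without the cells rich in Cd74 or Lyz2.

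Among the lowest genes spread over many cells, Gadd45b, a stress gene induced by NF-kB, was at 586 CPM (70 cells) and 120 CPM (37 cells), -2.28 (-2.67 to -1.92). Nfkbid, an inhibitor of the NF-kB family, was at 118 and 22.2 CPM, -2.41 (-3.39 to -1.56). Entpd1 (CD39), which degrades extracellular ATP, was at 76.3 and 7.41 CPM, -3.36 (-5.27 to -1.96). Trerf1 (-2.92), Ckb (-2.68) and Chn2 (-2.25) were also among them, and without the cells rich in Cd74 or Lyz2 they were at -2.26, -1.84 and -1.73.

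Effector genes did not move as 1 group. Of 18 cytotoxic genes, 6 were lower and 3 higher by 2-fold, beside 9.75% and 7.89% of all genes. Their median was -0.04. Their sum of -0.70 (-0.78 to -0.61) was carried by Ccl5, a chemokine at 2599 CPM (3440 UMIs in 43 cells) and 1326 CPM (716 UMIs in 28 cells). Nkg7, a granule membrane protein, was at 467 and 211 CPM, -1.14 (-1.45 to -0.85). Perforin (Prf1) had 30 and 4 UMIs, the granzyme gene Gzmk 52 and 6, and Eomes, a factor of killer and memory cells, 64 and 11. Klrc1 (1.36), an inhibitory killer receptor, and Ctsw (1.20), a lysosomal protease of killer cells, were higher. Gzmc had 2 and 77 UMIs, 58 of them in 1 TNF+ cell.

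Cytokine RNA was rare and often sat in single cells. Of 7 cytokine genes compared, 4 were lower and 1 higher by 2-fold, beside 9.75% and 7.89% of all genes. Their median was -1.01. Ifng was at 93.7 CPM (20 cells) and 44.5 CPM (9 cells), -1.08 (-1.77 to -0.44). Mouse Tnf was at 74.0 CPM (98 UMIs in 40 cells) and 31.5 CPM (17 UMIs in 11 cells), -1.23 (-2.07 to -0.48), and at -0.97 without the cells rich in Cd74 or Lyz2. Cd40lg, the helper signal to B cells, was at 102 and 38.9 CPM, -1.39, and RANKL (Tnfsf11), the signal for osteoclast formation, at 137 and 74.1 CPM, -0.88 (-1.42 to -0.38). Of the 38 TNF+ UMIs of Csf2, 37 came from 1 cell, and all 53 TNF+ UMIs of Il5 came from 1 cell. Il17a was found in 4 TNF- cells, all 4 with a Trdc UMI and 0 with a Trac UMI. It was also found in 2 TNF+ cells, 1 with a Trdc UMI and 2 with a Trac UMI. Il21, Il22 and Il3 had no UMI in either library, which at a floor of 3 UMIs allows levels that were not detectable here.

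Receptors of tissue position went both ways. The integrin Itgae (CD103), which binds cells to epithelium, had 6 and 31 UMIs, 3.66 (2.38 to 5.21). Ccr6, a chemokine receptor of type 17 and regulatory cells, had 3 UMIs in 3 TNF- cells and 20 UMIs in 13 TNF+ cells, 4.03 (2.28 to 6.42). Rgs1, a brake on chemokine receptors, was at 245 and 689 CPM, 1.49 (1.27 to 1.71), and Il18r1, a receptor for interleukin 18, at 153 and 406 CPM, 1.41 (1.13 to 1.69). Cd69, an early activation and residency marker, was lower, at 161 and 51.9 CPM, -1.63 (-2.26 to -1.06). Tbx21 (T-bet), the factor of type 1 cells, was at 119 and 37.0 CPM, -1.69 (-2.44 to -1.01). Of 15 proliferation genes compared, 6 were lower and 0 higher by 2-fold, beside 9.75% and 7.89% of all genes. Their median was -0.52, while their sum was at 0.13 since H2afz, a histone variant, was at 998 and 1491 CPM. Mki67 was seen in 11 TNF- and 4 TNF+ cells.

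Of 8 TNF family ligands compared, 4 were lower and 1 higher by 2-fold, beside 9.75% and 7.89% of all genes. Their median was -1.003, or -1.12 relative to all genes, and their sum was 691 and 606 CPM. The counts that follow in this paragraph stand beside the same shares. Of 7 genes of follicular and peripheral helper cells, which aid B cells, 3 were higher and 0 lower, with a median of 0.87 and a sum of 485 and 1058 CPM. Pdcd1 (PD-1), an inhibitory receptor that such cells carry, was at 46.8 and 120 CPM, a log2 ratio of 1.36. Of 12 checkpoint genes 3 were higher and 3 lower, with Havcr2 at 1.17 and Btla at -2.19. Of 12 class I antigen presentation genes 3 were lower, among them the proteasome subunit Psmb9 at -1.46. The list for complement, the subject of the study, had 3 of 12 genes compared in these cells, with 0 past 2-fold. Its sum was 89.1 and 144 CPM, with Cr1l as the top gene, and is not the level of the cascade as a whole.

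The cells were then split into 6 subsets, a split chosen after values were seen. The order was Foxp3, gamma delta, CD8, Cd4, Fcer1g without a coreceptor, and the rest. Each cell went to the first subset whose mark it held, so gamma delta cells could also hold CD8 or Cd4 UMIs. In this order the subsets held 5, 26, 15, 26, 8 and 19 TNF- and 9, 9, 10, 19, 7 and 23 TNF+ cells. Odc1 was higher in TNF+ cells in each of the 6, from 924 to 4894 CPM in Foxp3 cells, 459 to 2002 in gamma delta, 219 to 1634 in CD8, 232 to 3487 in Cd4, 143 to 1456 in Fcer1g and 551 to 2033 in the remaining cells. Fosb was lower in each, from 2075 to 197 CPM in Foxp3, 573 to 71.5 in gamma delta, 198 to 99.1 in CD8, 799 to 58.1 in Cd4, 480 to 56.5 in Fcer1g and 1238 to 153 CPM in the remaining cells. The direction was thus the same in every subset for both genes, with 4 to 22 TNF+ UMIs of Fosb per subset. Nr4a1, Fos, Nfkb1 and Nfkbia were likewise lower in TNF+ cells, and Icos higher, in each of the 6 subsets, with as few as 2 UMIs of Nr4a1 in TNF+ gamma delta cells.

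Other genes differed mostly in some subsets. Ikzf2 stood at 48.9 CPM (15 UMIs) in TNF- against 886 CPM (122 UMIs) in TNF+ Cd4 cells and at 767 and 3078 CPM in Foxp3 cells, but at 1275 and 989 CPM in Fcer1g cells. Tnfrsf9 was at 157 and 2072 CPM in Foxp3 cells and at 20.8 and 12.4 CPM in CD8 cells. Ifi27l2a was at 1726 and 225 CPM in Cd4 cells and at 314 and 296 CPM in Foxp3 cells. Ccl5 stood at 2147 CPM (658 UMIs) in TNF- against 36.3 CPM (5 UMIs) in TNF+ Cd4 cells, yet at 2891 and 3754 CPM in gamma delta cells. The difference between subsets was not tested, as each genotype gave 1 library.

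Within Foxp3 cells, genes that mark tissue regulatory cells were each found in most cells. How many cells held all of them was not counted. Of the 9 TNF+ cells, 9 held Ikzf2, 8 Tnfrsf9, 8 Tnfrsf4, 7 Gata3 and 7 Il1rl1, the receptor for interleukin 33. Of the 5 TNF- cells, 3 held Ikzf2, 4 Tnfrsf9, 4 Tnfrsf4, 4 Gata3 and 4 Il1rl1. Over all 77 TNF+ T cells, the same genes in this order were found in 35, 39, 27, 34 and 11. Over all 99 TNF- T cells they were found in 31, 27, 22, 47 and 32. Of 32 TNF- cells with Il1rl1, 24 held Gata3 and 8 held Il5, a set of genes shared by type 2 helper and innate type 2 cells, and 4 held Foxp3. Of 11 TNF+ cells with Il1rl1, 10 held Gata3, 7 Foxp3 and 1 Il5. Fcer1g, the signalling chain of Fc receptors that innate-like T cells also carry, was found in 20 TNF- cells, 16 of them with Trac, and in 14 TNF+ cells, 9 of them with Trac.

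**Figure D4:**
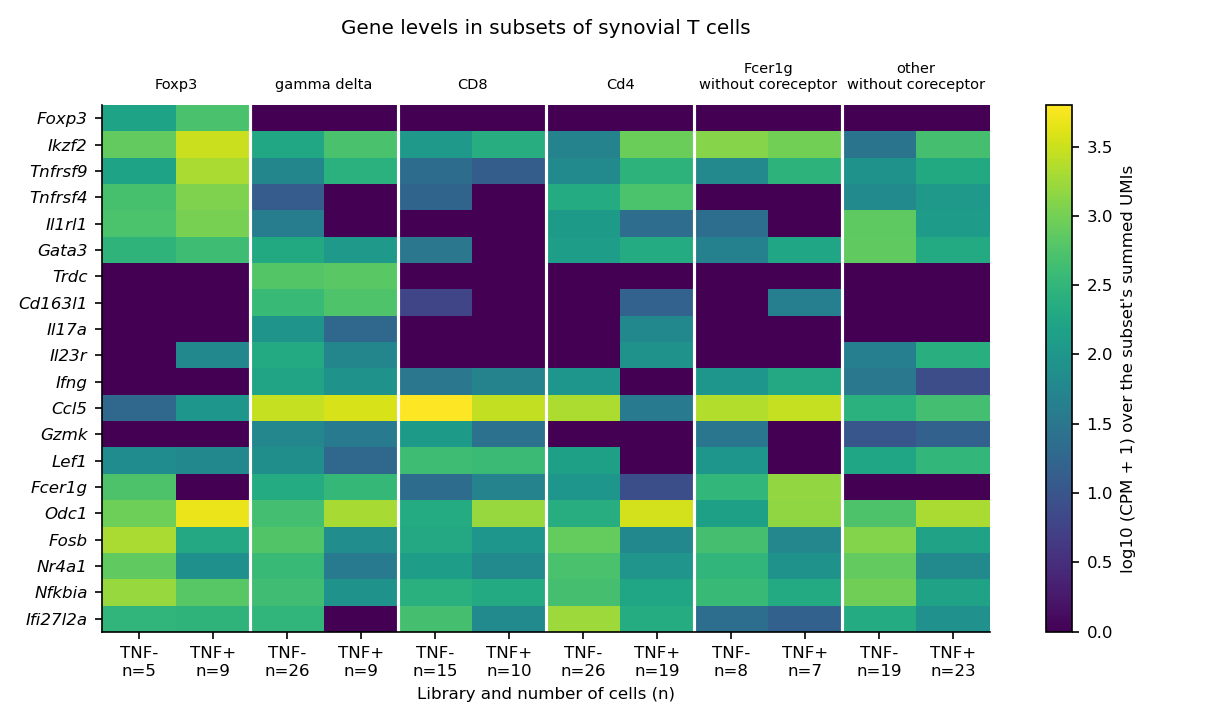
Level of 20 genes, as log10 of CPM plus 1 over the summed UMIs, in 6 subsets of synovial T cells in the TNF- and TNF+ library, with the number of cells under each column. Odc1 was brighter and Fosb and Nr4a1 darker in the TNF+ column of every subset, and Foxp3, which defines its subset, was above 0 only there.

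Synovial T cells were last set against lung T cells of the same genotype, found by the same rule. Tissue, digestion enzymes (type II collagenase for synovium, and Collagenase A, elastase and dispase for lung) and library cannot be told apart in this comparison. Of 11886 genes with at least 20 UMIs over both tissues in each genotype, 312 (2.62%) were at least 2-fold higher and 1331 (11.2%) at least 2-fold lower in the synovium in both genotypes, and the median log2 ratio of synovium over lung was -0.47 in TNF- and -0.22 in TNF+ mice. In the TNF+ lung 254 of 1049 T cells held at least 10 UMIs of Lyz2 or Cd74, against 18 of 872 in the TNF- lung.

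The fixed rule named 8 genes as higher in the synovium in both genotypes. Areg, amphiregulin, a growth factor made by tissue regulatory and type 2 cells, stood at 110 CPM (146 UMIs in 20 cells) in TNF- against 178 CPM (96 UMIs, 61 in 1 of 10 cells) in TNF+ synovial T cells, against 0.740 and 4.87 CPM in the lung. Crem, a repressor that cyclic AMP induces, was at 400 and 783 CPM against 47.0 and 47.7 CPM. Ramp3 was at 233 and 739 against 12.6 and 15.0 CPM, Fosl2, an AP-1 component, at 363 and 319 against 15.5 and 24.5 CPM, and Rgs2, a brake on G proteins, at 532 and 448 against 67.8 and 65.4 CPM. Dgat1, Mpp7 and Got1 made up the rest, with log2 ratios of 3.68, 3.15 and 2.78 in TNF- and 3.85, 3.00 and 3.72 in TNF+ mice.

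The gene groups differed too. Of 12 naive and recirculating genes, 7 were lower and 0 higher in the synovium in both genotypes, beside 11.2% and 2.62% of all genes. Lef1, a factor of naive T cells, was at 159 and 152 CPM in synovium and 1167 and 706 CPM in lung. Of 12 residency genes 4 were higher and 0 lower, and of 6 type 2 genes 4 were higher and 0 lower. Il1rl1 was at 178 and 135 CPM in synovium and 5.29 and 21.2 CPM in lung. Of 16 NF-kB genes 4 were higher in both genotypes, with sums of 1.28 in TNF- and 0.26 in TNF+ mice, and of 20 immediate-early genes 5 were, with sums of 1.18 and 0.35. For these lists the synovial level above the lung was therefore smaller in the TNF+ pair. Coreceptors were lower in the synovium: Cd8b1 was at 91.4 and 48.2 against 307 and 202 CPM. The lowest genes, Prrg1, Traj12, Ddx60, Treml2, Slc14a1, Iqce and Pacsin1, rested on 7 or fewer UMIs per synovium library, and Dapl1, a gene of naive CD8 cells, was at 20.4 and 11.1 CPM in synovium against higher lung levels, with log2 ratios of -3.06 and -3.17.

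**Figure D5:**
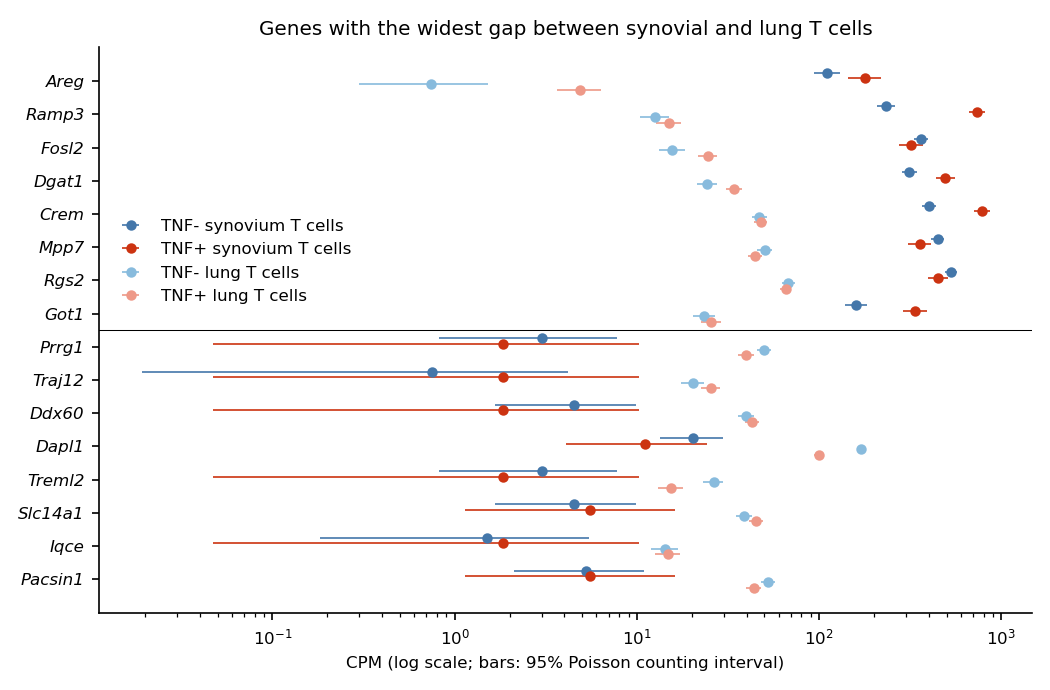
Level in CPM (log scale) of the 16 genes with the widest gap in both genotypes between synovial and lung T cells, in each of the 4 libraries, with 95% Poisson counting intervals; the 8 genes above the line were higher in the synovium and the 8 below it in the lung. Crem was at 400 and 783 CPM in synovial and at 47.0 and 47.7 CPM in lung T cells.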

How the data were processed

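RNA of viable sorted cells was measured by 10x 3' single-cell sequencing in 4 pooled libraries, synovium and lung of TNF- and TNF+ mice. The authors deposited unnormalised UMI count matrices of 32285 genes, made with Cell Ranger 7.0.1 on mm10 per the submitters' processing notes. Here UMIs of the T cells of a library were summed and divided by their total (CPM). The authors' filter of 200 to 5000 genes was an alternative. Intervals were Poisson for CPM, Clopper-Pearson for shares, Newcombe for differences of shares and conditional binomial for log2 ratios, each at 95%. As each group was 1 library of pooled mice, no test between groups was made, intervals and floors cover counting error only, and a gene was called past 2-fold at 20 or more UMIs over both libraries. A gene with no UMI was compared at a floor of 3 UMIs per library.

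Fibroblast-, macrophage-, endothelium- and natural killer-marked barcodes were set by a few defining genes each. Genes were named by a fixed rule: at least 100 UMIs over both libraries, a UMI in at least 10% of T cells of the higher library, a CPM there no lower than in the library's other barcodes, and no gene of the membership rule and no mitochondrial, ribosomal or predicted gene. The 12 highest and 12 lowest log2 ratios were named, 8 each for tissue, and list members past 2-fold. Members and lists were chosen with earlier results of these data known. Doublets were kept: Scrublet, at 0.8% per 1000 barcodes, marked 366 TNF- and 119 TNF+ barcodes, 8 and 0 of them T cells, and served as an alternative. Calculations used Python 3.11.15, numpy 2.4.6, scipy 1.17.1, pandas 2.3.3, scanpy 1.11.5 and matplotlib 3.10.9, and were tested on simulated data. Gene positions came from GENCODE on GRCm38 and promoters from RefSeq. Some genes that met the naming rule or belong to a list are not reported here.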

Additional observations from a re-analysis of the deposited data

Results flagged for a closer look

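For 8 gene lists the summed log2 ratio of TNF+ over TNF- lay on opposite sides of 0 in synovial and lung T cells. The difference between the tissues was not tested, as each group was 1 library. The lung values include cells rich in Cd74 or Lyz2, which were 18 of 872 TNF- cells (5.20% of T cell UMIs) and 254 of 1049 TNF+ cells (29.7%). In lung T cells the macrophage list was at 459 and 2026 CPM and the B cell list at 227 and 1190 CPM. The part of such RNA in the lung ratios was not tested. The gamma delta receptor list was at -0.63 (-0.87 to -0.38) in the synovium and 0.43 (0.35 to 0.51) in the lung. The TNF receptor and NF-kB list was at -0.61 (-0.70 to -0.52) and 0.40 (0.37 to 0.43). The T cell cytokine list was at -0.28 (-0.48 to -0.076) and 0.42, and the TNF family ligand list at -0.19 (-0.38 to -0.0069) and 0.84. The integrin list was at -0.24 (-0.34 to -0.13) and 0.083, and the class I list at -0.060 (-0.11 to -0.0079) and 0.27. In the opposite direction, the naive and recirculating list was at 0.29 (0.20 to 0.38) in the synovium and -0.65 in the lung, and the proliferation list at 0.13 (0.043 to 0.21) and -0.48. Of these lists, 5 turned sign in the synovium under some alternative. The gamma delta list was at 1.39 without gamma delta cells, the cytokine list at 0.19 with at least 1 CD3 UMI and 0.18 in CD8-only cells, the ligand list at 0.11 in Cd4-only cells and the class I list at 0.032 with at least 1 CD3 UMI. The proliferation list was at -0.13 with at least 1 CD3 UMI, -0.059 with median-of-ratios scaling, -0.069 in CD8-only cells and -0.00066 without Foxp3 cells. The NF-kB, integrin and naive lists kept their sign under the alternatives tried.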

How the results depend on the processing

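No paired analysis was possible because each genotype and tissue was 1 library, and for the same reason no library could be left out. Of 78 alternatives to the shares 67 stayed within their interval. Of 387 alternatives to the list ratios only 230 stayed within the interval of the main value, while 355 kept the sign. For the named genes, where these had at least 20 UMIs, 293 of 336 alternatives stayed within it and 335 kept the sign. Irs2 turned to -0.064 in CD8-only cells, and Cd83, with fewer than 20 UMIs without the cells rich in Cd74 or Lyz2, stood at 3.10 (1.24 to 5.55) there. The cause of the moves was not tested. The NF-kB sum was -0.71 with 200 to 5000 genes per cell, -0.51 with at least 1 or at least 4 CD3 UMIs, -0.85 with no collagen UMI, -0.80 with median-of-ratios scaling, -0.70 as a mean over cells, -0.71 without gamma delta cells, -0.71 in Cd4-only and -0.38 in CD8-only cells. The interferon sum was -1.01 with at least 1 CD3 UMI, -1.50 with no collagen UMI, -1.42 with median-of-ratios scaling, -1.50 in Cd4-only and -2.22 in CD8-only cells. The immediate-early sum was -0.72 with at least 1 CD3 UMI, -0.94 with no collagen UMI, -0.80 without the highest Scrublet scores, -0.98 at 1000 UMIs per cell, -1.04 with median-of-ratios scaling, -0.92 without gamma delta cells, -1.23 in Cd4-only and -0.76 in CD8-only cells. The regulatory sum was 0.86 with no collagen UMI, 1.09 with median-of-ratios scaling, 1.78 in Cd4-only and 1.13 in CD8-only cells. With no collagen UMI, T cells were 1.02% of TNF- and 1.60% of TNF+ barcodes. At 1000 UMIs per cell the TNF- and TNF+ shares were 8.08% and 5.19% for CD8 only, 5.05% and 11.7% for Cd4 only, 0% and 5.19% for Foxp3, and 10.1% and 3.90% for gamma delta. Genes at least 2-fold higher numbered 135 at 1000 UMIs per cell, 358 with median-of-ratios scaling, 242 in CD8-only cells, 1252 with 5 and 97 with 100 UMIs required per gene. Genes at least 2-fold lower numbered 123 at 1000 UMIs per cell, 443 in Cd4-only and 299 in CD8-only cells, 1406 with 5 and 161 with 100 UMIs required. Against the lung, genes higher in both genotypes numbered 153 at 1000 UMIs per cell, 499 with median-of-ratios scaling, 1266 with 5 and 195 with 100 UMIs required, and genes lower 470, 794 with median-of-ratios scaling, 763 in Cd4-only and 547 in CD8-only cells. Alternatives chosen after seeing the data gave T cells as 2.62% of TNF- and 2.51% of TNF+ barcodes without the fibroblast-marked ones, 480 lower genes without the cells rich in Cd74 or Lyz2, and, without Foxp3 cells, an interferon sum of -1.51 and a regulatory sum of 0.93. Genes under 20 UMIs, most cytokines among them, could not be compared at this depth.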
